A study of Homo sapiens with 2 samples.

Results

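The genes described are the transcription factors RUNX1 and RUNX2 with their partner subunit CBFB, the repressors HES1, HES4, HES6, HES7 and HEY1, and the receptors NOTCH1 and NOTCH2. They were taken by symbol, 10 of the 25268 symbols listed. The set was chosen by name with its measured log2 ratios already known, RUNX1 and HES7 being among the lowest of all genes, so the ratios below are a description and no test was made. The cells were C4-2B MDVR, a line of the LNCaP lineage that grows without testicular androgen and resists the antiandrogen enzalutamide. All cultures, controls included, were kept in 20 µM enzalutamide. For 3 days they received either the vehicle DMSO, which gave 1 library, or 20 µM Indocin, which gave the other (indomethacin, a cyclooxygenase inhibitor that also blocks the androgen-synthesis enzyme AKR1C3). Libraries were prepared with a stranded mRNA kit, and with 1 library a group nothing below has a replicate check or an error between cultures. All values come from 1 cell line, and the labels do not say how many cultures went into a library.

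RUNX proteins bind DNA through a Runt domain, and CBFB, which does not touch DNA itself, strengthens that binding. RUNX1 is best known as a master regulator of blood formation and RUNX2 of bone formation, and both are also studied in prostate carcinoma. Notch receptors are cleaved after contact with a ligand on a neighbouring cell, and the freed intracellular part joins the DNA-binding protein RBPJ to switch on genes of the HES and HEY families. HES and HEY proteins are basic helix-loop-helix repressors that recruit Groucho corepressors, as RUNX proteins can, and several HES proteins repress their own genes.

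The sequences before the gene starts are shown for the genes on which the comparison turns, RUNX1, HES1 and HES7, for HES4, the most abundant repressor, and for HES6, the 1 gene that was higher. Each run is the 250 bases before the start in RefSeq's GRCh38.p14 table, 5′ to 3′ on the strand of the gene. Capitals mark every match, on either strand, to TGGGAA (the core that RBPJ binds), to CACNAG or CACGCG (sites that HES proteins bind) and to TGTGGT (the RUNX site). Lower-case runs without capitals hold none of these.
HES1: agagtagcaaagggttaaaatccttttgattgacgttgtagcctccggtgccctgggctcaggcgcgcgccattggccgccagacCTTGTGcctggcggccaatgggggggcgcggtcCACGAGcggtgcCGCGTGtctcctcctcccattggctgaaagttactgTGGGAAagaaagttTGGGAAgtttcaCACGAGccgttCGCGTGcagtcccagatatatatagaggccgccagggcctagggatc
HES4: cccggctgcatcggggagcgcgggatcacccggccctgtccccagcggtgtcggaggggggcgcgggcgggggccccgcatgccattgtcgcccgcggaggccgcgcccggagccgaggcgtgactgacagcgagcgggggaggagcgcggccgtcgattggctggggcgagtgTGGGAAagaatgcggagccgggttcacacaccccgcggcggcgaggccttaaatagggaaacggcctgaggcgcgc
HES6: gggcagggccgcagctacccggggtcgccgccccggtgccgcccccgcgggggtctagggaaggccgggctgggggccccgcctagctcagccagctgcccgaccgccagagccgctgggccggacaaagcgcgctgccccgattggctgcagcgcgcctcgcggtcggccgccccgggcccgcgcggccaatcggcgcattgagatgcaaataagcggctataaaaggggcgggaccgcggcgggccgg
HES7: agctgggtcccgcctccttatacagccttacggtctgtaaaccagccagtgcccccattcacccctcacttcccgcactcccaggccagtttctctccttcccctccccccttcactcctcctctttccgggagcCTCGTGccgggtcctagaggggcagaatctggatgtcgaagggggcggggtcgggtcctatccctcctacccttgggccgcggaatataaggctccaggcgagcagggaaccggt
RUNX1: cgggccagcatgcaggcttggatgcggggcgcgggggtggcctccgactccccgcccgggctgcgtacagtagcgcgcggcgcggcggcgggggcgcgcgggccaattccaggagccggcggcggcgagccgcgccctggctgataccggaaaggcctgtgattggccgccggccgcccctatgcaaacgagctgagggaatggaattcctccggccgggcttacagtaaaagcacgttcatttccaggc

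These windows lie at chr3:194135898-194136147 on the plus strand for HES1, and on the minus strand at chr1:1000098-1000347 for HES4, chr2:238240039-238240288 for HES6, chr17:8124107-8124356 for HES7 and chr21:34888700-34888949 for RUNX1. Windows were taken by symbol and read for 8 of the 10 genes, and none was read for CBFB or HEY1. HES1 held the TGGGAA core at 2 places, 84 to 79 and 70 to 65 bases before the start, and HES4 held it once, 76 to 71 bases before. The first HES1 match and the HES4 match both extended to GTGGGAA, a longer form that contains the core. Of all 35116 windows of this length, 20.9% held the core at least once and 2.90% held it 2 or more times. The longer form was held at least once by 5.43%. HES1 also held 3 CACNAG matches and 2 CACGCG matches, and HES7 held 1 CACNAG match 115 to 110 bases before its start. Those letters were present at least once in 32.0% and 9.72% of all windows, and 2 or more times in 6.32% and 1.61%. No marked letters were found in the windows of RUNX1, HES6, NOTCH1 or NOTCH2. RUNX1 has a distal and a proximal promoter but only 1 window here, so its other promoter was not read. RUNX2 has 2 windows in the table, and the first held TGTGGT at 2 places, 1 of which overlapped a CACNAG match. Of all windows 11.0% held TGTGGT at least once and 0.971% held it 2 or more times. A match is a run of letters only, and binding was not measured.

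Values are FPKM, fragments scaled by transcript length and library size, so levels of different genes can be set side by side. In the DMSO library the order from high to low was HES4, HES1, CBFB, HES6, NOTCH2, RUNX1, NOTCH1, HES7, HEY1 and RUNX2. In the Indocin library HES4 was again the highest and HES7, HEY1 and RUNX2 again the lowest, but HES1 stood behind CBFB and HES6, and RUNX1 stood below NOTCH1. With 1 library each, neighbours in either order cannot be separated from chance variation between cultures.

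**Figure D1:**
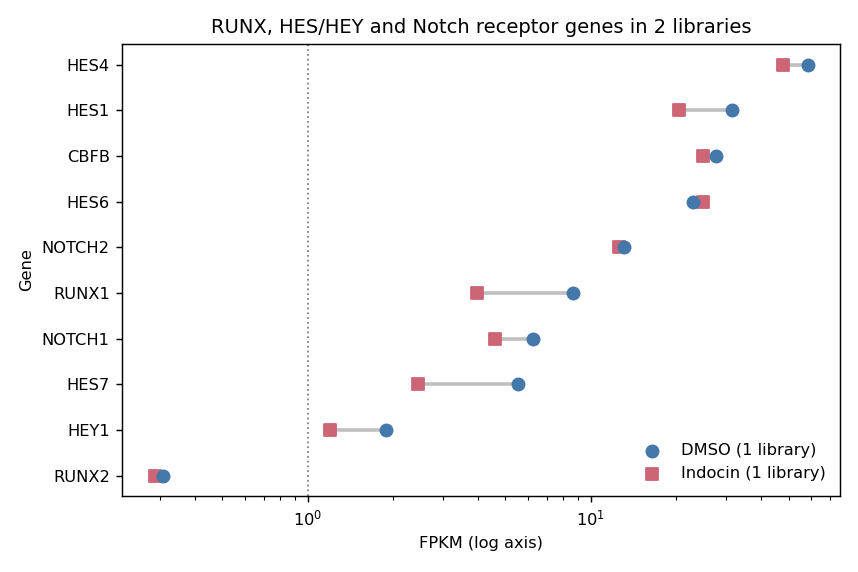
FPKM of the 10 genes on a log axis, in the DMSO library (circles) and the Indocin library (squares), ordered by the DMSO value; the dotted line marks 1 FPKM. RUNX1, HES7, HES1 and HEY1 have the widest gaps, HES6 alone is higher in the Indocin library, and RUNX2 lies below 1 FPKM in both.

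RUNX1 stood at 8.66 FPKM with DMSO and 3.97 FPKM with Indocin. The Indocin value was 45.9% of the DMSO value, a 2.18-fold lower level, and the log2 ratio of FPKM + 1 (Indocin over DMSO, the scale of every log2 ratio below) was -0.96. This was the sixth lowest ratio of 11966 measured genes, meaning genes whose mean over both libraries reached 1 FPKM. Of all measured genes 0.744% were at least 1.5-fold lower and 2.19% at least 1.5-fold higher on this scale. Counts below in each direction should be read against the share of that direction. In a bulk sample, less RNA per cell and fewer cells with the RNA cannot be told apart. RUNX1 has a distal and a proximal promoter, and a value per symbol does not separate their transcripts. The intronic transcript RUNX1-IT1 was listed at 0 in both libraries.

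CBFB, the shared partner subunit, stood at 27.7 FPKM with DMSO and 25.0 FPKM with Indocin (log2 ratio -0.14). CBFB was thus the more abundant partner in both libraries, with 3.20 CBFB FPKM per RUNX1 FPKM with DMSO and 6.28 in the Indocin library. RUNX2 was listed at 0.308 and 0.289 FPKM, under the minimum mean, and RUNX3, the third family member, at 0 in both. RUNX1 therefore supplied nearly all of the RUNX FPKM of these cells under both conditions. The nearest genes to RUNX1 in the values of both libraries, by distance on the log2(FPKM + 1) scale, were TUBA3D (9.66 and 3.79 FPKM), SLC6A6 (7.37 and 4.61 FPKM) and CCDC138 (7.45 and 4.80 FPKM), and with 2 points a gene this likeness says no more than those values.

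Apart from CBFA2T2, the other measured RUNX partners lay close to the median of all measured genes, which was -0.02. CBFA2T2, a corepressor of the ETO family, stood at 7.49 and 9.98 FPKM (0.37) in the DMSO and Indocin libraries, the furthest of the list after RUNX1. The transcriptional coactivator YAP1 stood at 22.5 and 20.5 FPKM (-0.12), the TGF-beta mediator SMAD3 at 3.26 and 3.06 FPKM (-0.07), and the kinase HIPK2 at 28.6 and 30.1 FPKM (0.07). The ETO gene RUNX1T1 was listed at 0 in both libraries, CBFA2T3 at 0.0164 and 0.0737 FPKM, and the YAP1 paralog WWTR1 at 0.134 and 0.0912 FPKM. Of 13 genes on the list 8 were measured, 1 (RUNX1) was at least 1.5-fold lower and none was as much higher.

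Genes regulated by RUNX proteins in bone, blood and carcinoma gave 6 measured members of 17. VEGFA, the angiogenic factor, stood at 135.4 FPKM with DMSO and 290.3 FPKM with Indocin (1.09). It was the only one past 1.5-fold, and higher, where 2.19% of all measured genes were as much higher. The cell cycle inhibitor CDKN1A was at 0.50 and SOX4 at -0.26, and the list median was -0.13. The bone genes SPP1 and IBSP and the blood genes MPO and CSF1R were listed at or under 0.0356 FPKM in both libraries. MMP13, of the same list, was listed higher, at 0.280 FPKM with DMSO and 0.608 FPKM with Indocin, still under the minimum mean.

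HES7, the oscillating repressor of the somite segmentation clock, stood at 5.52 FPKM with DMSO and 2.45 FPKM with Indocin. The Indocin value was 44.3% of the DMSO value, the smallest percentage of the 10 genes, and the log2 ratio was -0.92, the eighth lowest of all measured genes. With a pseudocount of 5 FPKM in place of 1 it was -0.50 and no longer past 1.5-fold. HES1, the most widely used readout of Notch activity, stood at 31.5 and 20.5 FPKM, 65.0% of the DMSO value (-0.60). HES1 passed 1.5-fold by a small margin: it was -0.53 after scaling to a common upper quartile, -0.52 with the same FPKM sum or a pseudocount of 5 FPKM, and -0.57 with ratios centred on their median, all short of 1.5-fold.

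HES4, a HES gene of humans with no counterpart in mice, was the most abundant member at 58.5 FPKM with DMSO and 48.0 FPKM with Indocin (-0.28). Its window shares the GTGGGAA letters with HES1, letters held by 5.43% of all windows, and any tie between these letters and the ratios was not tested. HEY1, a direct Notch target, stood at 1.89 and 1.20 FPKM (-0.39), and with a pseudocount of 0.1 FPKM its ratio was -0.61 and past 1.5-fold. HES6, which opposes HES1 in neural differentiation, stood at 23.0 and 24.9 FPKM (0.11) and was the 1 measured member above 0. HES6 stayed above 0 under all 5 alternative calculations, joined by NOTCH2 with a common upper quartile or FPKM sum. The order of HES6 and HES1 was exchanged between the libraries, with 0.729 HES6 FPKM per HES1 FPKM with DMSO and 1.22 in the Indocin library.

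**Figure D2:**
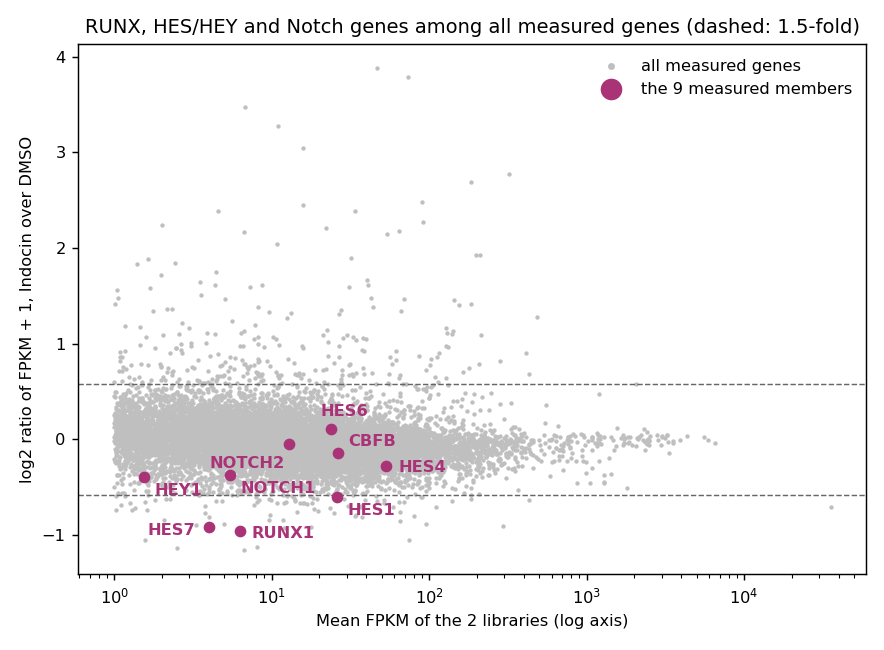
Log2 ratio of FPKM + 1 against mean FPKM (log axis) for all measured genes (grey) and the 9 measured members (purple), with dashed lines at 1.5-fold. RUNX1 (-0.96) and HES7 (-0.92) lie at the lower edge of the cloud, HES1 (-0.60) just past the line, and CBFB, NOTCH2 and HES6 inside it.

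Most of the other HES and HEY genes were listed low or at 0. HES2 stood at 3.28 FPKM with DMSO and 2.61 FPKM with Indocin (-0.25), and the related repressor BHLHE40, a clock and hypoxia gene, at 18.2 and 21.1 FPKM (0.20). HES5 was listed at 0.137 and 0.0340 FPKM, BHLHE41 at 0.211 and 0.187 FPKM, and HES3, HEY2, HEYL and HELT at 0 in both. Summed over the 10 HES and HEY genes, 123.8 FPKM with DMSO compared with 99.7 FPKM with Indocin. HES4 gave 47.2% and 48.1% of these sums, HES1 25.5% and 20.6%, HES6 18.6% and 25.0%, and HES7 4.45% and 2.45%.

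NOTCH1 stood at 6.26 FPKM with DMSO and 4.61 FPKM with Indocin, 73.6% of the DMSO value (-0.37). NOTCH2 stood at 13.1 and 12.6 FPKM (-0.05), and its sign turned to 0.02 with a common upper quartile or FPKM sum. NOTCH2NL, a partial copy of NOTCH2 with which it can share reads, stood at 8.39 and 8.15 FPKM, and the sum of both was 21.5 and 20.8 FPKM. NOTCH3, at 27.4 and 25.1 FPKM (-0.12), was the most abundant receptor, with 58.5% and 59.2% of the receptor FPKM. NOTCH4 was listed at 0.0456 and 0.0583 FPKM. The receptor sum was 46.8 FPKM with DMSO and 42.4 FPKM with Indocin, of which NOTCH1 gave 13.4% and 10.9%.

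In all, 9 of the 10 genes were measured. Of these 3 (RUNX1, HES7 and HES1) were at least 1.5-fold lower, where 0.744% of all measured genes were. None was as much higher, where 2.19% of all measured genes were. Because the set was chosen with these ratios known, nothing is read from the count against the background. Of the 9, 8 were below 0 and 1 above (7 below with a common upper quartile or FPKM sum, where NOTCH2 turned), and the median was -0.37. Of all measured genes 55.2% were below 0 as deposited, 41.2% with a common upper quartile and 39.6% with a common FPKM sum. The background split itself moved with the scale: 89 genes were lower and 262 higher as deposited, 59 and 320 with the same upper quartile, and 52 and 323 with the same FPKM sum.

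Ligands of Notch showed smaller differences than HES7 or HES1. JAG2 stood at 28.2 FPKM with DMSO and 20.5 FPKM with Indocin (-0.44), and DLL3, a ligand-like protein that acts inside the same cell, at 12.2 and 10.2 FPKM (-0.24). JAG1 stood at 5.78 and 5.57 FPKM (-0.05, turning to 0.02 with a common upper quartile or FPKM sum) and DLL1 at 1.46 and 1.68 FPKM (0.13). DLL4 (0.0271 and 0.0904 FPKM), DLK2 (0.780 and 0.727 FPKM) and DNER (0.00966 FPKM and 0) were under the minimum, and DLK1 and CNTN1 were listed at 0 in both. None of the 4 measured ligands was past 1.5-fold.

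FURIN, the convertase that makes the first cut of the receptor during export, stood at 11.2 FPKM with DMSO and 18.8 FPKM with Indocin (0.70). Of the 9 measured proteases and subunits that cut the receptor, FURIN was the 1 past 1.5-fold. It fell short of 1.5-fold with a pseudocount of 5 FPKM. Of all measured genes 2.19% were as much higher. The gamma-secretase subunit APH1B stood at 8.56 and 11.2 FPKM (0.35) and the protease ADAM17 at 7.44 and 8.77 FPKM (0.21). The list median was 0.15, and 7 of the 9 genes were above 0, where 44.8% of all measured genes were, with ADAM10 (-0.01) and APH1A (-0.04) below. With a common upper quartile or FPKM sum all 9 were above 0, but so were 58.8% and 60.4% of all measured genes. Among enzymes that place sugars on the receptor, the fringe enzyme LFNG stood at 15.0 and 9.10 FPKM (-0.66), at least 1.5-fold lower except with a pseudocount of 5 FPKM. POFUT1 (-0.09) and POGLUT1 (0.06), which add the first sugars, were nearer to 0.

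The nuclear complex and the turnover machinery held no gene past 1.5-fold among 13 and 15 measured. RBPJ, the DNA-binding subunit, stood at 15.9 FPKM with DMSO and 15.7 FPKM with Indocin (-0.02, with the sign turning under all 3 rescalings). The corepressors NCOR1 (0.24) and SPEN (-0.21) were the furthest of the complex, whose median was -0.02 (0.04 and 0.05 with a common upper quartile and FPKM sum). In the turnover list the ligase NEDD4 stood at 2.21 and 3.41 FPKM (0.45), DTX3 at 0.36 and the endocytic inhibitor NUMBL at -0.33, around a median of 0.04. Of the Groucho corepressors, TLE6 (0.27), AES (-0.12) and TLE1 (-0.09) were the furthest, TLE3 stood at 47.1 and 48.9 FPKM (0.05), and none of 5 was past 1.5-fold.

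**Figure D3:**
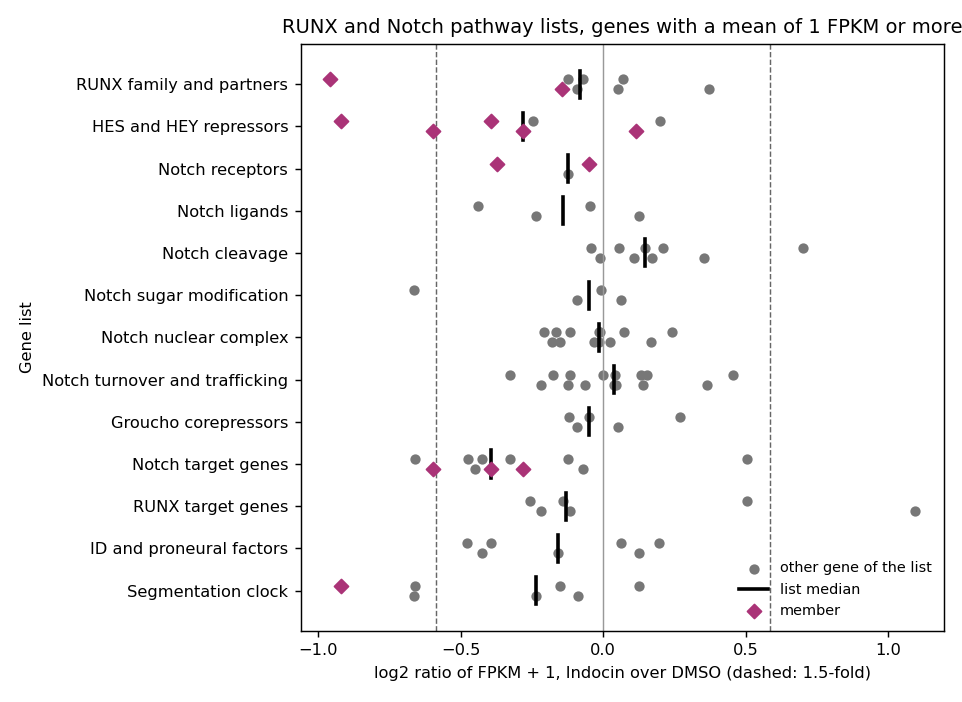
Log2 ratio of FPKM + 1 for the measured genes of 13 RUNX and Notch lists, with members as purple diamonds, other genes as grey points and list medians as black bars; dashed lines mark 1.5-fold. Besides the members, LFNG and NRARP lie past the line on the lower side and FURIN and VEGFA on the higher side.

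Among genes commonly induced by Notch, NRARP, a small protein that damps Notch signalling, stood at 22.3 FPKM with DMSO and 13.8 FPKM with Indocin (-0.66). It was at least 1.5-fold lower, except with the same FPKM sum or a pseudocount of 5 FPKM, and HES1 was the other such gene of the list. MYC (-0.48), CCND1 (-0.45), ID1 (-0.43) and SOX9 (-0.33) were lower without reaching 1.5-fold, and CDKN1A (79.0 and 112.4 FPKM, 0.50) was the 1 gene above 0. Of 11 measured genes 10 were below 0, with a median of -0.39, but HES1, HES4 and HEY1 among them were chosen with their ratios known. Without the members 7 of 8 were below 0, with a median of -0.38, where 55.2% of all measured genes were below 0 as deposited and 41.2% after scaling to a common upper quartile. The rest of this list was also written with earlier results of these data known, so nothing is read from these shares. Blood-specific targets were listed low, IL2RA at 0 in both libraries and PTCRA at 0.409 and 0.0580 FPKM.

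Genes that work with HES7 in the segmentation clock gave 7 measured members of 10, of which HES7, LFNG and NRARP were at least 1.5-fold lower. Of all measured genes 0.744% were. HES7 was chosen with its ratio known, and LFNG and NRARP are the same genes already counted in lists above. With a common FPKM sum 2 of HES7, LFNG and NRARP were past 1.5-fold, and with a pseudocount of 5 FPKM none. MESP2, a clock target in the somite, stood at 10.6 FPKM with DMSO and 9.92 FPKM with Indocin (-0.09), and the list median was -0.24. Among helix-loop-helix factors of the ID, proneural and E protein groups, ID3 stood at 111.0 and 79.4 FPKM (-0.48). ID1 stood at 218.1 and 162.1 FPKM (-0.43) and the E protein TCF3 at 23.8 and 17.9 FPKM (-0.39). The proneural genes NEUROD1, NEUROG2, NEUROG3 and ATOH1 were listed at 0 in both libraries, and none of the 7 measured genes of this list was past 1.5-fold.

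Over the 13 lists together, 77 genes outside the members were measured of 122. Of these 2 were at least 1.5-fold lower (2.60%, against 0.744% of all measured genes) and 2 at least 1.5-fold higher (2.60%, against 2.19%), and their median was -0.04. The 2 lower were NRARP and LFNG. All 13 lists were written with earlier results of these data known, so nothing is read from the count of any list against the background.

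The genes next to the members were read from the RefSeq annotation by name only. Of 20 flanking protein-coding genes 12 were measured, 8 below 0 and 4 above as deposited, with a median of -0.10. Of all measured genes 55.2% were below 0 as deposited and 41.2% with a common upper quartile. No flanking gene was past 1.5-fold, where 0.744% of all measured genes were lower and 2.19% higher. HES7 lies between ALOXE3 (-0.11) and the clock gene PER1 (24.0 FPKM with DMSO and 18.5 FPKM with Indocin, -0.36). HES6 lies beside PER2, another clock gene, at 8.87 and 12.6 FPKM (0.47), and PER1 and PER2 are named here because they were the furthest from 0, chosen after their values were seen. The measured neighbour of RUNX1, SETD4, was at -0.16 but lies 985 kb away. CLIC6, which flanks RUNX1 on the other side at 69.6 kb, was under the minimum mean. By contrast, ALOXE3 lies 1.7 kb from HES7.

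Marker genes were checked for the labelled cell type. All 10 markers of prostate luminal cells were measured, KLK3 at 71.7 FPKM with DMSO and 58.1 FPKM with Indocin among them. Of these markers 6 were below 0, with a median of -0.24, and their part in the ratios of the members was not tested. Blood markers, relevant because RUNX1 marks blood cells, summed to 0.893 and 0.622 FPKM over 10 genes, mostly LYZ (0.702 and 0.461 FPKM). Among the others CD3E, GATA1 and HBB were at 0 in both and PTPRC at 0 and 0.0233 FPKM. Stromal and endothelial markers summed to 6.0 and 6.67 FPKM, mostly COL1A1 (4.54 and 4.80 FPKM), with COL1A2, COL3A1, DCN and PECAM1 at 0 in both. Neuroendocrine markers, relevant to HES6, were measured only for ENO2 (33.1 and 31.7 FPKM), a glycolytic enzyme also found in other cells, while INSM1, NEUROD1 and SOX2 were at 0 in both and CHGA at 0.0118 and 0.0353 FPKM.

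**Figure D4:**
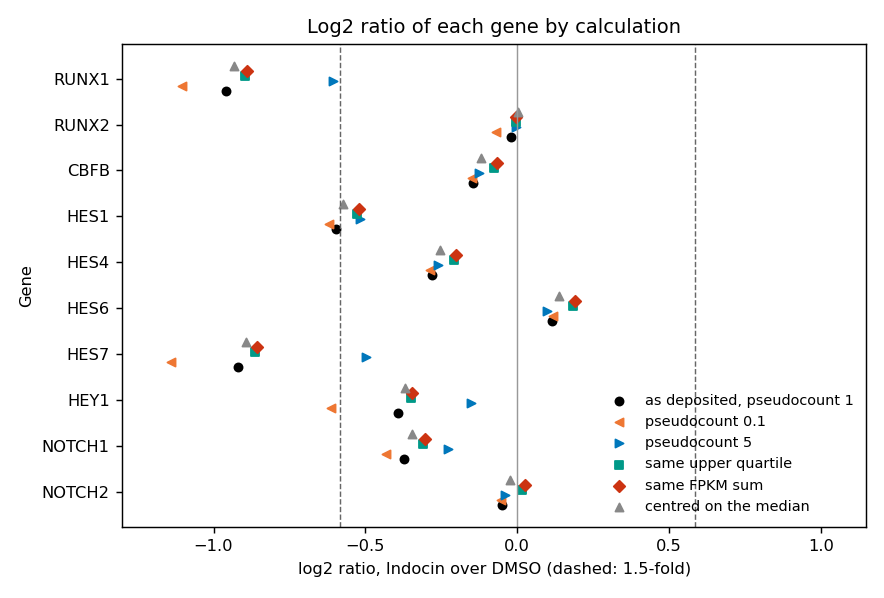
Log2 ratio of each of the 10 genes under 6 calculations (symbols): as deposited with a pseudocount of 1 FPKM, 2 other pseudocounts and 3 rescalings of the libraries; dashed lines mark 1.5-fold. RUNX1 stays past the line under all 6, from -1.11 to -0.61, while HES7 spans -1.14 to -0.50 and HES1 -0.62 to -0.52, across it.

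Of the members past 1.5-fold, only RUNX1 stayed past it under each of the 5 alternative calculations of the ratio. The range between the quartiles of the log2 ratio, over all genes of a given mean level, was 0.28 for 1 to 2 FPKM (1084 genes, HEY1 among them), 0.30 for 2 to 5 FPKM (1943 genes, with HES7) and 0.27 for 5 to 10 FPKM (2141 genes, with RUNX1 and NOTCH1). It was 0.25 for 10 to 30 FPKM (3647 genes, with HES1, HES6, CBFB and NOTCH2) and 0.21 above that (3151 genes, with HES4). In the same order of classes, 1.01%, 0.566%, 0.560%, 0.713% and 0.920% of genes were at least 1.5-fold lower.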

How the data were processed

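The authors deposited, per the file headers, 1 table for each library with FPKM and a status for 25268 gene symbols, all with the status OK. Among the tools in the submitters' processing notes are Cuffnorm, StringTie, Cufflinks, TopHat and bcl2fastq, and the genome is named there as GRCh37 or hg19. Roles and versions of the tools, the annotation and whether counting used strand were not stated in the sources used here. A listed 0 can be a failed estimate.

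From these values log2((Indocin FPKM + 1)/(DMSO FPKM + 1)) was computed for every gene (Python 3.11.15, pandas 2.3.3). Genes counted as measured when their mean reached 1 FPKM, 11966 in all, after 2041 symbols of short RNA genes were left out. With 1 library a group there was no test. The FPKM sum was 617510 with DMSO and 583096 with Indocin. The fragment number was not recovered, so no counting interval is given; among 1335 genes under 0.05 FPKM, 45.2% had library ratios within 1% of 1.014 times a ratio of whole numbers up to 4 (median over other factors 2.55%), so a fragment weighed about the same in both. The calculation was checked on simulated data.

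Members and the 17 gene lists, written from general knowledge, were chosen with earlier results of these data known. All members, all genes of the RUNX, HES/HEY, receptor and ligand lists, and up to 3 genes of each other list with the largest ratios plus any past 1.5-fold were to be named; further genes named were chosen after their values were seen. RMRP and RPPH1 were added to the short RNA rule after the data were seen. Alternatives were pseudocounts of 0.1 and 5 FPKM, 3 rescalings, 2 filters on low values, short RNA genes kept and a 2-fold threshold. Promoter sequences came from RefSeq's GRCh38.p14 table and were searched for letters on both strands. Some genes of the lists are not reported here.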

Additional observations from a re-analysis of the deposited data

How the results depend on the processing

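With 1 library in each group no replicate could be left out, and no paired analysis was possible because each group had 1 library. Absolute depth limits low genes most, HEY1 and HES7 among the members. The number of members at least 1.5-fold lower was 3 as deposited, 1 (RUNX1) with a pseudocount of 5 FPKM and 0 at a 2-fold threshold; it lay between 2 and 4 under the other alternatives, and no member was as much higher under any. Of pathway genes outside the members, 2 were lower and 2 higher as deposited, 0 and 1 with a pseudocount of 5 FPKM and likewise 0 and 1 at 2-fold, and 1 was lower with the same FPKM sum. The median of these genes, -0.04 as deposited, was 0.03 with the same upper quartile and 0.04 with the same FPKM sum. Of all measured genes, 188 were lower and 420 higher with a pseudocount of 0.1 FPKM, 36 and 126 with 5 FPKM, and 5 and 90 at 2-fold; 59 were lower with the same upper quartile and 52 with the same FPKM sum, and 168 were higher when the mean had to reach 5 FPKM. Smaller pseudocounts widen the ratio of low genes by construction, and a higher minimum leaves fewer genes. For the other moves the cause was not tested.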
